A study of Mus musculus with 10 samples.

Results

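Regulatory T (Treg) cells of a hepatoma were set against those of a T lymphoma. The comparison took every RNA-seq library labelled as tumour Treg cells, 4 from Hepa1-6 tumours and 2 from E.G7 tumours, which are 6 of the 10 libraries of the series. The other 4 libraries, of Treg cells from lymph nodes (LN) of mice without a tumour, stood outside the contrast and served as a reference level. The genotype of all 3 groups was Foxp3YFP-cre, whose Treg cells carry a yellow fluorescent protein and Cre recombinase under the control of Foxp3. Either line was injected under the skin, and mice were killed on day 23 (Hepa1-6) or day 21 (E.G7). Tumour-infiltrating lymphocytes were isolated, and Treg cells were sorted by flow cytometry from the CD4+ T cells. The sources used here give neither age nor sex of the mice. Nor do the labels say whether replicate libraries came from separate animals, so a p-value here reflects only how far these libraries scatter, and that scatter may be technical. The stated purpose of the series was to ask which helper T cell subsets the intratumoral Treg cells resemble; the contrast between the tumours asks how far that differs from one tumour to the other.

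Treg cells are CD4+ T cells that restrain other immune cells, and the transcription factor Foxp3 sustains their programme. In tumours they commonly take on an activated, effector form, with high levels of inhibitory receptors, TNF receptor family members and chemokine receptors such as Ccr8. They can also take up parts of the programmes of helper T cells, such as Tbx21 and Cxcr3 of T helper 1 (Th1) cells. Hepa1-6 is a mouse hepatoma line, and E.G7 is a mouse T lymphoma line derived from EL4 that carries an ovalbumin gene. An E.G7 tumour cell is itself of the T lineage, so T cell genes do not separate it from a Treg cell.

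The 6 tumour libraries held 26224286 to 26665325 counts. Values are CPM, read counts scaled to a common library size after TMM (a scaling by the trimmed mean of log ratios), and are given as the mean ± SD over 4 Hepa1-6 and 2 E.G7 libraries. Fold changes are log2 of Hepa1-6 over E.G7, and a gene was called at an adjusted p under 0.05 in edgeR. Replicates differed by more than sampling noise in every pair (chi-square per degree of freedom 7.41 to 18.9 in Hepa1-6 and 8.35 in E.G7), so none was a repeat deposit. The first principal component, with 80.9% of the variance, separated the tumours. The second, with 6.49%, set Hepa1-6 replicate 4 (-57.9) apart from the other Hepa1-6 libraries (1.53 to 35.4). Mitochondrial transcripts took 1.35% ± 0.105 of counts in Hepa1-6, 1.83% ± 0.187 in E.G7 and 1.90% ± 0.177 in LN. An exact permutation test of 4 against 2 libraries has 15 splits and cannot pass 0.05, so single shares are given with no p.

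The sorted libraries held transcripts of other cells, and the amounts differed between the tumours. The 14 markers of all T cells, such as Cd3e and Cd4, summed to 7486 to 7724 CPM in Hepa1-6, 7349 to 7469 in E.G7 and 9033 to 10006 in LN. By contrast, the 15 hepatoma markers summed to 2677 to 2723 CPM in Hepa1-6, 119.9 to 123 in E.G7 and 7.87 to 10.2 in LN. Alb, serum albumin, was at 376, 377, 356 and 374 CPM in the 4 Hepa1-6 libraries and 0.0372 and 0.0736 in the 2 E.G7 libraries. Krt8 and Krt18, keratins of simple epithelia, were at 463 against 0.13 CPM and 537 against 1.29 CPM, whereas the liver genes Apoa1, Ttr and Ahsg and the fetal genes H19 and Igf2 were under 1 CPM in both groups. All Hepa1-6 libraries thus lay above all E.G7 libraries for albumin and both keratins. Of 8 hepatoma markers tested, 7 were higher in Hepa1-6. Afp, alpha-fetoprotein, was at 56.7 against 1.96 CPM, and its 6.48 CPM in LN made most of the LN sum. Most of the E.G7 sum came from list members not named here, so the sums are not a measure of hepatoma cells alone.

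Macrophage markers were higher in Hepa1-6 for 14 of 14 genes, with a median log2 fold change of 3.45, and summed to 5341 to 5822 CPM in Hepa1-6, 846 to 877 in E.G7 and 49.3 to 67.7 in LN. Arg1, an arginase of suppressive macrophages that liver cells also make, was at 963 ± 49 against 5.17 ± 2.27 CPM, and C1qa, a complement component, at 224 ± 13.2 against 19.4 ± 1.49 CPM. The log2 fold change of Arg1, 7.54, lay above the list median. Arg1 counts in the sums above, and which cells supplied it was not tested. Of the dendritic cell and MHC class II markers 8 of 10 were higher, led by the invariant chain gene Cd74 at 4909 ± 244 against 881 ± 46.3 CPM and H2-Aa at 1256 ± 37.9 against 229 ± 1.94 CPM. Cd8a was at 130.3 ± 3.45 against 22.8 ± 0.129 CPM and 7 of 10 CD8 T and NK markers were higher, while the NK receptor gene Ncr1 stayed under 1 CPM in both groups. Stromal markers split, with 7 of 10 higher, among them Fn1 (fibronectin, 878 against 31.7 CPM), and Acta2 (smooth muscle actin, 2.44 against 55.2 CPM) and Pdgfrb (1.85 against 13.4 CPM) higher in E.G7. Neutrophil, erythroid, mast cell and endothelial markers were sparse, with sums of at most 114 CPM in a Hepa1-6 and 90.1 CPM in an E.G7 library. Cpa3, a mast cell protease gene, was the member of these lists that was higher in E.G7 (4.73 against 33.7 CPM). No B cell marker was higher in Hepa1-6 and 4 of 10 were higher in E.G7, Ighm at 378 against 595 CPM, with 865 in LN.

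Genes of immature T cells and of T lymphomas split, with 4 of the 7 tested higher in E.G7 and 3 higher in Hepa1-6. Trap1a, a tumour rejection antigen gene silent in most adult tissues, was at 0, 0, 0 and 0.206 CPM in the 4 Hepa1-6 libraries and 121 and 132 in the 2 E.G7 libraries. Dntt, the terminal transferase of immature lymphocytes, was at 2.84 ± 0.172 against 46.6 ± 4.5 CPM with 2.3 in LN, and Arpp21, a thymocyte gene, at 0.144 ± 0.0719 against 22.9 ± 1.28 CPM with 1.28 in LN. Myb, a transcription factor of progenitors, was at 11.6 ± 1.34 against 58.8 ± 6.82 CPM. Those higher in Hepa1-6 were Cd8b1, a CD8 chain, Themis, a regulator of thymocyte selection, and Cd1d1, at 66.5 against 27.1 CPM, 111 against 69.5 CPM and 54.8 against 46.7 CPM. The recombinase gene Rag1 was at 0 in every library, and Rag2 and Ptcra were at or under 0.1 CPM. The E.G7 libraries therefore stood alone for Trap1a, Dntt, Arpp21 and Myb, with no overlap with either other group. In bulk libraries, fewer cells of a type and less RNA per cell cannot be told apart.

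A sex-linked gene also separated the groups. Xist, the RNA that silences an X chromosome in females, was at 209, 242, 203 and 203 CPM in the 4 Hepa1-6 libraries and 8.29 and 7.03 in the 2 E.G7 libraries, with 158 CPM in LN (log2 fold change 4.81 ± 0.12 (SE), edgeR adjusted p = 5.58e-14). Transcripts of the Y-linked genes Ddx3y, Eif2s3y, Kdm5d and Uty were present in every library; Ddx3y was at 94.3 ± 2.32 against 116 ± 9.52 CPM and Eif2s3y at 53.3 ± 1.48 against 78.1 ± 1.63 CPM. All 4 were called higher in E.G7, Ddx3y no longer without E.G7 replicate 1 (log2 fold change -0.23, edgeR adjusted p = 0.0765). Exons of Xist overlap Tsix and other genes. As the strand setting is not given, a part of the Xist reads may belong to these neighbours. Of the 6 sex-linked genes tested, 2 were higher in Hepa1-6, Xist and Tsix. The part of these markers of other cells, of lymphoma genes and of sex in the differences below was not tested.

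**Figure D1:**
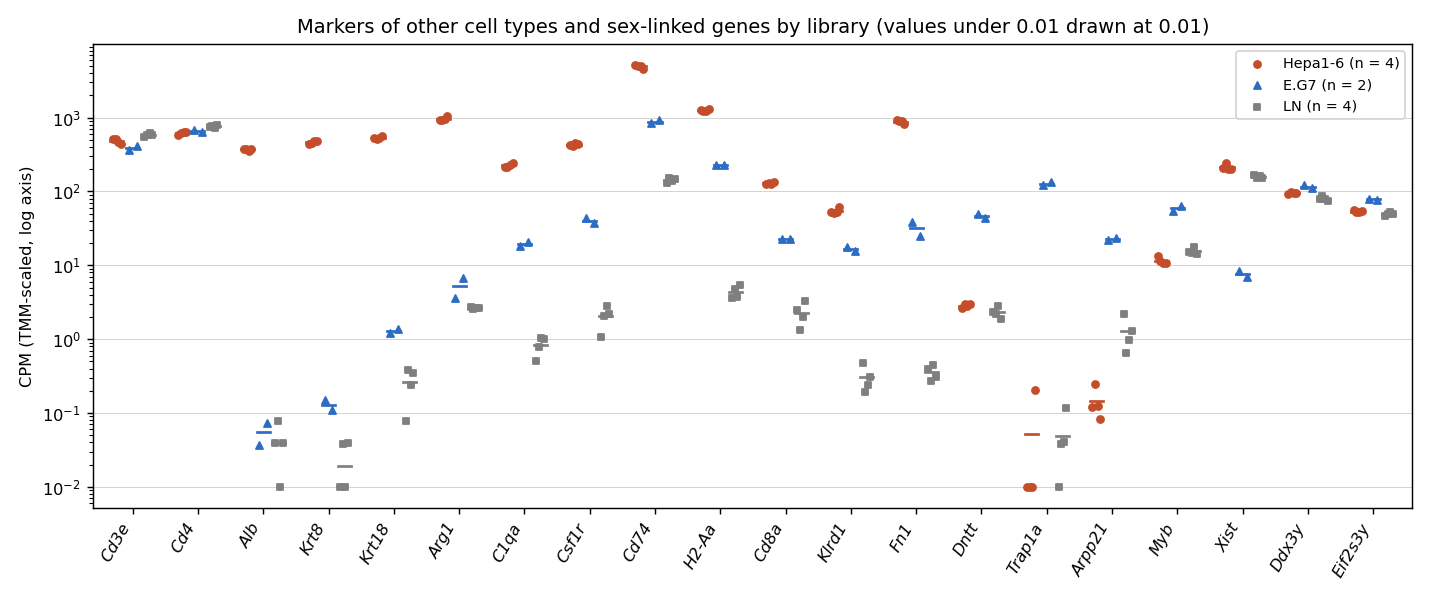
CPM on a log axis for 20 genes in each library; points are libraries (circles Hepa1-6, triangles E.G7, squares LN) and short bars are group means, with values under 0.01 drawn at 0.01. Alb, Krt8, Arg1 and C1qa were high in all 4 Hepa1-6 libraries, Trap1a and Arpp21 in both E.G7 libraries, and Xist was low only in E.G7, at 7.03 and 8.29 CPM.

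Of 20068 genes tested, 5228 were higher in Hepa1-6 and 3925 in E.G7, which is 45.6% called (26.1% higher and 19.6% lower). These shares are the background against which each gene list below is read. The median log2 fold change over all genes tested was 0.06. The groups' libraries did not overlap for 58% of genes, in either direction. A change of at least 2-fold was seen for 2915 of the genes higher in Hepa1-6 and 1280 of those higher in E.G7. An LN mean under 1 CPM was found for 6204 genes (30.9%) of those tested, for 1903 (36.4%) of those higher in Hepa1-6 and for 596 (15.2%) of those higher in E.G7. Among the 8766 genes with an LN mean of at least 10 CPM, 2344 (26.7%) were higher in Hepa1-6 and 2530 (28.9%) in E.G7, with 367 and 301 changed at least 2-fold. The balance of the calls moved with the processing: 57.1% of all calls were higher in Hepa1-6, but 50.9% in a fit of the 6 tumour libraries alone, and 67.5% when tested against a fold of 1.5.

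**Figure D2:**
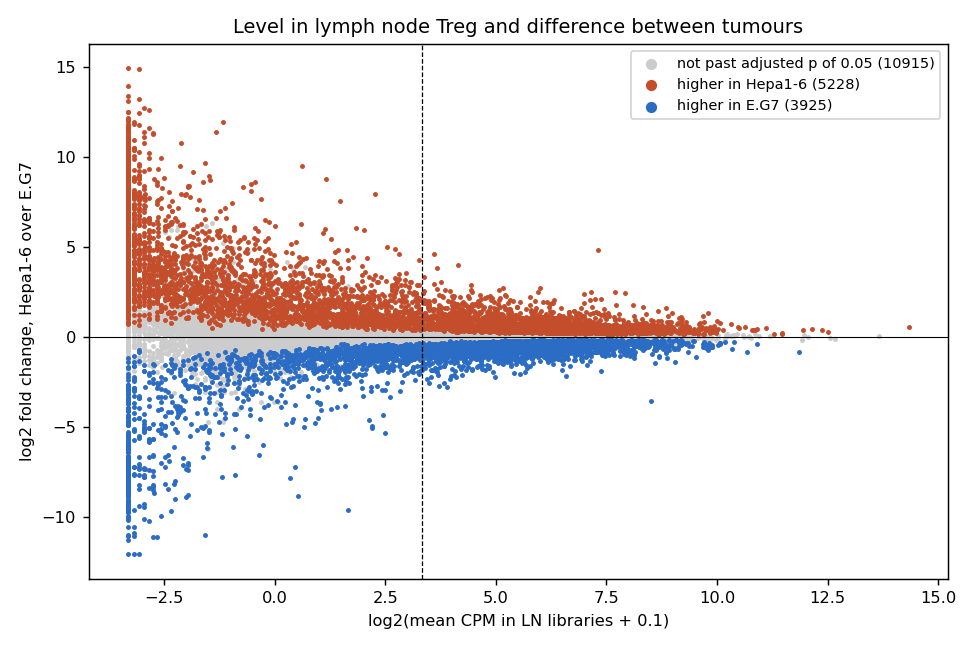
Each point is one of the 20068 genes tested, by its mean level in LN libraries (log2 of CPM + 0.1, x axis) and its log2 fold change, Hepa1-6 over E.G7 (y axis); the dashed line marks 10 CPM in LN. The largest differences, in both directions, lie at the left, among genes nearly absent from LN Treg cells; 5228 genes were called higher in Hepa1-6 and 3925 in E.G7.

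The 8 largest differences towards Hepa1-6 were in genes that no LN library held above 1 CPM. Tnfrsf11b, the decoy receptor osteoprotegerin, was at 153 ± 9.69 CPM with no count in E.G7, which is at least 2761-fold higher against a floor of 3 counts over the group. Gpx2 (a glutathione peroxidase of epithelia, at least 2686-fold), Cldn3 (a tight junction protein, at least 1387-fold), Rbp4 (the retinol carrier, at least 955-fold) and Igfbp3 (at least 852-fold) also had no count in E.G7. So did Tspan8 and Sorbs2, at least 769-fold and 606-fold higher. Alb, with 3 counts in E.G7, stood 6678-fold higher, with an exact 95% interval for counting error of 2285 to 32383. All 8 were at or near 0 in both other groups.

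Towards E.G7, Erbb4, a receptor tyrosine kinase, had no count in Hepa1-6 and was at 21.8 ± 1.08 CPM in E.G7, at least 704-fold higher there. Slc5a9 and Slc22a3, solute carriers, were at least 701-fold and 406-fold higher, the kinase gene Dclk3 at least 689.7-fold and the sperm-surface gene Adam18 at least 344-fold. Insl5 and Mylk4 had 1 count each in Hepa1-6 and were at 33.9 and 32.7 CPM in E.G7, and Trap1a completed the 8. None of these genes reached 0.1 CPM in the LN mean.

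Among genes with an LN mean of at least 10 CPM the order was led by Xist, followed by 3 genes of the epithelial surface and of interferon response. Bcam, a laminin receptor, was at 139 ± 10.9 against 5.66 ± 0.694 CPM, Epcam at 122 ± 5.93 against 8.54 ± 0.895 CPM and Gbp2b, a guanylate-binding protein, at 32.8 ± 1.45 against 2.07 ± 0.0141 CPM. Rnase4 (158 against 16 CPM; its exons overlap Ang), Anxa4 (329.6 against 40.4 CPM), Lgmn (legumain, 417 against 57.6 CPM) and Lamb3 (a laminin chain, 121 against 18.2 CPM) followed. The largest differences towards E.G7 began with Tcf7, described with the homing genes below. Bcat1, the cytosolic branched-chain aminotransferase, was at 21.1 ± 1.77 against 146 ± 3.09 CPM, Ccr9, the receptor of thymus and gut homing, at 15.4 ± 0.649 against 93.4 ± 2.19 CPM, and Eef2k, the kinase that slows translation elongation, at 10.1 ± 0.846 against 46 ± 1.52 CPM. Pomt1, Nefh, Mvb12b and Myb made up the rest, with log2 fold changes of -2.75, -2.56, -2.35 and -2.34. Exons of Ccr9 overlap Slc6a20a, and the sources used here do not give the strand setting, so a part of its reads may belong to the neighbour.

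Genes of Treg identity were mostly higher in the hepatoma. Of 14 core genes, 11 were higher in Hepa1-6, 2 in E.G7 and 1 was not called; the median log2 fold change was 0.40, where that of all genes was 0.06. Foxp3 (chrX:7573644-7595245 in mm10) was at 97.3, 82.7, 74.2 and 73.8 CPM in the 4 Hepa1-6 libraries and 47.1 and 53.3 in the 2 E.G7 libraries, and the groups did not overlap (log2 fold change 0.71 ± 0.12 (SE), edgeR adjusted p = 1.58e-04). Both tumours lay under the LN mean of 109 CPM, and exons of Foxp3 overlap Ccdc22, Ppp1r3f and Flicr. Il2ra, the chain that gives the IL-2 receptor its high affinity, was at 644, 602, 601 and 583 CPM in the 4 Hepa1-6 libraries and 287 and 281 in the 2 E.G7 libraries (log2 fold change 1.09 ± 0.06 (SE), edgeR adjusted p = 6.64e-10), with 585 in LN. The Hepa1-6 libraries were thus at the LN level for Il2ra, and the E.G7 libraries below it. Capg, an actin-capping protein, was at 868 ± 17.6 against 499 ± 15 CPM, Il2rb at 2389.9 ± 29.7 against 1766 ± 92.1 CPM and Izumo1r (folate receptor 4) at 305 ± 5.56 against 215 ± 8.79 CPM. Nrp1, a surface marker often used for Treg cells of thymic origin, was at 214 ± 3.61 against 166 ± 6.2 CPM (log2 fold change 0.37 ± 0.06 (SE), edgeR adjusted p = 6.44e-05), with 482 in LN, so that both tumours lay below LN. Ikzf2 (Helios), used in the same way, was at 601 ± 32.6 against 523 ± 7.51 CPM (log2 fold change 0.20 ± 0.07 (SE), edgeR adjusted p = 0.0249). Ctla4 was at 1409.5 ± 23.7 against 1261 ± 45.5 CPM (log2 fold change 0.16 ± 0.05 (SE), edgeR adjusted p = 0.0122). The calls of Ikzf2 and Ctla4 did not hold under other processing, with edgeR adjusted p of 0.126 and 0.122 under upper-quartile scaling. Gpr83 and Foxo1, genes of resting Treg cells, were higher in E.G7, at 24 against 31.8 CPM and 49 against 73.1 CPM.

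Effector Treg genes showed the same direction more strongly, with 15 of 18 higher in Hepa1-6, 1 in E.G7 and a median of 0.75. Itgae, the CD103 integrin chain that binds E-cadherin, was at 366, 345, 338 and 354 CPM in the 4 Hepa1-6 libraries and 118 and 103 in the 2 E.G7 libraries (log2 fold change 1.67 ± 0.08 (SE), edgeR adjusted p = 1.18e-10). With 319.9 CPM in LN, it was the E.G7 libraries that stood low. Areg, the tissue repair factor amphiregulin, was at 278 ± 13.9 against 103 ± 6.57 CPM (log2 fold change 1.43 ± 0.08 (SE), edgeR adjusted p = 3.44e-10) and 4.24 in LN, above LN in both tumours. Cd44, the hyaluronan receptor of activated T cells, was at 522 ± 21.4 against 259 ± 1.37 CPM, and Tnfrsf9 (4-1BB) at 1555 ± 10.2 against 831 ± 4.55 CPM. Ccr8, a chemokine receptor typical of tumour Treg cells, was at 723, 724, 686 and 639 CPM in the 4 Hepa1-6 libraries and 410.0 and 424 in the 2 E.G7 libraries (log2 fold change 0.73 ± 0.06 (SE), edgeR adjusted p = 9.54e-08), with 97.9 in LN. Prdm1 (Blimp-1), a transcription factor of effector differentiation, was at 199 ± 5.34 against 105 ± 8.82 CPM (log2 fold change 0.91 ± 0.08 (SE), edgeR adjusted p = 1.81e-07). The factors Irf4 and Batf, also of effector Treg cells, were not called, at 115 against 108 CPM and 137 against 134 CPM.

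The genes through which Treg cells suppress were unevenly divided. Of 10 mediators 7 were higher in Hepa1-6 and 2 in E.G7 (median 0.68). Lag3, an inhibitory receptor for MHC class II, was at 617, 599.6, 571 and 564 CPM in the 4 Hepa1-6 libraries and 181 and 184 in the 2 E.G7 libraries (log2 fold change 1.69 ± 0.06 (SE), edgeR adjusted p = 4.79e-12). Fgl2, a secreted suppressor, was at 504 ± 18.6 against 157 ± 2.46 CPM (log2 fold change 1.68 ± 0.08 (SE), edgeR adjusted p = 8.88e-11). The cytolytic genes Prf1 (perforin) and Gzmb (granzyme B) were at 178 ± 6.45 against 44.7 ± 0.879 CPM (log2 fold change 1.99 ± 0.10 (SE), edgeR adjusted p = 2.42e-10) and 358 ± 15.8 against 185 ± 1.81 CPM (log2 fold change 0.95 ± 0.10 (SE), edgeR adjusted p = 1.04e-06). Both lay above LN in either tumour (12.1 and 6.01 CPM in LN). Tgfb1 was at 68.3 ± 4.6 against 34 ± 0.806 CPM and Il10 at 207 ± 14.1 against 157 ± 2.78 CPM (log2 fold change 0.41 ± 0.08 (SE), edgeR adjusted p = 4.91e-04), with 8.51 CPM of Il10 in LN. Ebi3 and Il12a, which encode the subunits of IL-35, were both higher in E.G7, at 43.1 against 56 CPM and 0.772 against 2.31 CPM. Lgals1 (galectin-1) was not called, at 713 against 839 CPM. Prf1 and Gzmb are also genes of CD8 T and NK cells, whose markers were higher in Hepa1-6, as given above.

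In the adenosine pathway the producing ectoenzymes were higher in Hepa1-6 and the enzymes of removal in E.G7, while the 2 nucleoside transporter genes went opposite ways. Entpd1 (CD39), which cuts ATP and ADP to AMP, was at 180.0, 188, 185 and 176 CPM in the 4 Hepa1-6 libraries and 67.1 and 57.8 in the 2 E.G7 libraries (log2 fold change 1.54 ± 0.08 (SE), edgeR adjusted p = 4.04e-10). LN libraries held 51.4 CPM, close to E.G7. Nt5e (CD73), which turns AMP into adenosine, was at 198, 218, 209.8 and 211 CPM in the 4 Hepa1-6 libraries and 163 and 139 in the 2 E.G7 libraries (log2 fold change 0.47 ± 0.07 (SE), edgeR adjusted p = 6.07e-05), below the 382 CPM of LN in both tumours. The low-affinity receptor gene Adora2b was higher in Hepa1-6 (12.8 against 2.92 CPM), and the T cell receptor for adenosine, Adora2a, was not called (32.5 against 40.3 CPM). Slc29a1, a nucleoside transporter, was at 119 ± 2.72 against 231 ± 6.46 CPM (log2 fold change -0.96 ± 0.06 (SE), edgeR adjusted p = 3.73e-09), and Adk (adenosine kinase) and Ada (adenosine deaminase) were higher in E.G7 too, at 81.9 against 119 CPM and 11.7 against 15.9 CPM. The other transporter gene, Slc29a2, was higher in Hepa1-6 but sparse, at 3.62 against 1.54 CPM. Of the 9 genes 4 were higher and 3 lower, with a median of 0.08, close to that of all genes.

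All 15 Th1 genes were higher in Hepa1-6, with a median of 0.74. Tbx21, the factor that specifies Th1 cells, was at 137, 131, 139.5 and 136 CPM in the 4 Hepa1-6 libraries and 67.5 and 62 in the 2 E.G7 libraries (log2 fold change 1.07 ± 0.11 (SE), edgeR adjusted p = 5.04e-07), with 7.37 in LN. Ifng, the Th1 cytokine, was at 88.2, 81.9, 84 and 94.2 CPM in the 4 Hepa1-6 libraries and 21.7 and 21.3 in the 2 E.G7 libraries (log2 fold change 2.02 ± 0.14 (SE), edgeR adjusted p = 1.02e-08). For both genes the tumours were apart with no overlap, and both tumours lay above LN. The chemokine gene Ccl5 was at 369 ± 21.2 against 117 ± 9.67 CPM and the receptor gene Cxcr6 at 511 ± 18.8 against 255 ± 8.26 CPM. Cxcr3, a target of Tbx21 that guides Th1-type Treg cells, differed less, at 221 ± 5.75 against 176 ± 3.16 CPM (log2 fold change 0.33 ± 0.06 (SE), edgeR adjusted p = 4.72e-04). With upper-quartile scaling 13 of the 15 remained called.

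Among Th2 genes 8 of 9 tested were higher in Hepa1-6 (median 1.76), but not the lineage factor: Gata3 was at 414, 439, 429.8 and 409 CPM in the 4 Hepa1-6 libraries and 445 and 416 in the 2 E.G7 libraries and was not called (log2 fold change -0.02 ± 0.06 (SE), edgeR adjusted p = 0.761). Il1rl1, the IL-33 receptor, was at 159 ± 4.76 against 47.2 ± 6.6 CPM (log2 fold change 1.76 ± 0.09 (SE), edgeR adjusted p = 2.86e-10) and Il4ra at 360.0 ± 3.23 against 247 ± 21.5 CPM. Ccr3 and Stat6 were higher as well, at 16.1 against 4.23 CPM and 359.7 against 234 CPM. The cytokine genes Il4, Il5 and Il13 were sparse, at 3.44 against 0.553 CPM, 1.89 against 0.0925 CPM and 0.66 against 0.0368 CPM. Ptgdr2 was not tested.

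The Th17 and follicular lists divided, with 2 of 9 higher and 4 of 9 lower in each; the medians were -0.36 and -0.13. In the Th17 list Il17f, Il23r, Ccr6 and Rora were higher in E.G7, at 0.309 against 4.53 CPM, 0.596 against 2.83 CPM, 12.5 against 31.1 CPM and 404 against 519 CPM. In the follicular list Bcl6, the lineage factor, was level at 5.56 ± 1.84 against 5.51 ± 0.0374 CPM (log2 fold change 0.01 ± 0.29 (SE), edgeR adjusted p = 0.979), Icos and Il21 were higher in Hepa1-6, and Cxcr5 (10.9 against 23.2 CPM) and Slamf6 (142 against 217 CPM) in E.G7. LN lay above both tumours for Cxcr5 (74.3 CPM), Slamf6 (523 CPM) and, of the Th17 list, Ccr6 (88.3 CPM).

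Genes of lymph node homing and of the resting state were higher in E.G7 for 9 of 13, with 3 higher in Hepa1-6 and a median of -0.59. Tcf7 (chr11:52252371-52283331 in mm10), which encodes TCF-1, a factor of naive, resting and immature T cells, was at 53.2, 52.7, 45.9 and 41 CPM in the 4 Hepa1-6 libraries and 569.7 and 586 in the 2 E.G7 libraries (log2 fold change -3.58 ± 0.08 (SE), edgeR adjusted p = 2.97e-14). LN libraries were at 362 CPM, so Tcf7 was lower in Hepa1-6 and higher in E.G7 than in LN. It was the largest difference towards E.G7 among genes of at least 10 CPM in LN. Dntt and Myb, named above, were also higher in E.G7 than in LN. Ccr7, the receptor for lymph node entry, was at 298, 299, 340.3 and 309 CPM in the 4 Hepa1-6 libraries and 683 and 655 in the 2 E.G7 libraries (log2 fold change -1.10 ± 0.07 (SE), edgeR adjusted p = 1.31e-09). Its E.G7 libraries lay near the LN mean of 732 CPM. Foxp1 was at 112 ± 3.13 against 291 ± 3.38 CPM, S1pr1, the exit receptor, at 122 ± 5.2 against 192 ± 13.3 CPM, and Lef1, Bach2 and Bcl2 were at 77.6 against 129 CPM, 10.8 against 19.7 CPM and 46.7 against 64.6 CPM. These 5 genes were highest in LN, with E.G7 between LN and Hepa1-6. Klf2, Klf3 and Il7r went against the rest of the list and were higher in Hepa1-6, at 40.2 against 32.3 CPM, 38.3 against 18.9 CPM and 249 against 193 CPM.

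**Figure D3:**
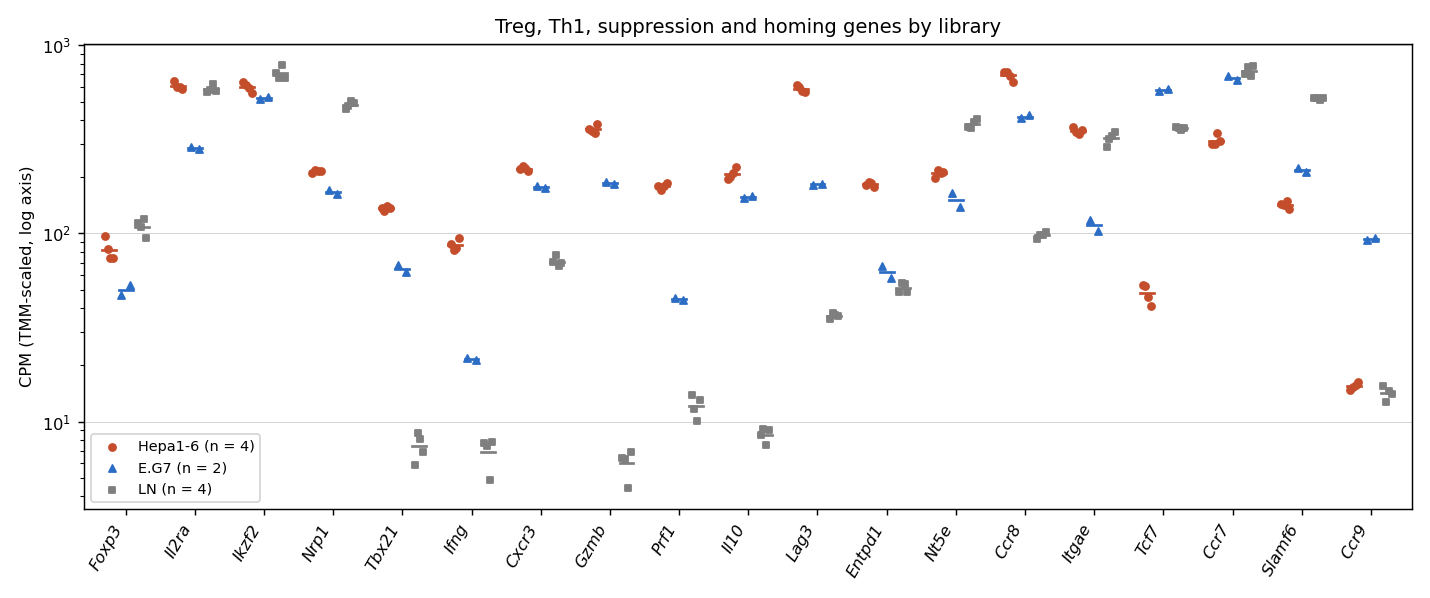
CPM on a log axis for 19 genes of Treg identity, Th1 programme, suppression and homing; points are libraries and short bars group means. Tbx21, Ifng, Prf1, Lag3 and Itgae lie higher in all 4 Hepa1-6 libraries than in both E.G7 libraries, and Tcf7, Ccr7, Slamf6 and Ccr9 lie the other way.

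Chemokine receptors were higher in Hepa1-6 for 9 of 13 and in E.G7 for 3 (median 0.73). Ccr1 was at 124 ± 7.28 against 16.5 ± 1.42 CPM (log2 fold change 2.91 ± 0.11 (SE), edgeR adjusted p = 4.73e-12) and Ccr2 at 534 ± 22.1 against 193 ± 9.28 CPM (log2 fold change 1.47 ± 0.07 (SE), edgeR adjusted p = 6.98e-11); macrophages also make both receptors. Ccr9, Ccr6 and Ccr10 were higher in E.G7. Of 10 integrin genes 9 were higher in Hepa1-6 (median 1.12); after Itgae, Itgav (743 against 353 CPM), Itgb8 (133 against 55.2 CPM) and Itga4 (241 against 108 CPM) had the smallest adjusted p. Itgav and Itgb8 encode the chains of the integrin that activates latent TGF-beta. Itgal, a chain of LFA-1, was not called (589.8 against 593 CPM).

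Chemokine ligands had the highest median of the lists of cell programmes, 2.85, with 16 of 18 higher in Hepa1-6. Ccl24, an eotaxin, was at 301 ± 28.6 against 0.148 ± 0.0533 CPM, Ccl2, a chemokine for monocytes, at 165 ± 6.56 against 7.28 ± 0.154 CPM, Ccl7 at 104 ± 11.9 against 4.27 ± 0.16 CPM and Cxcl9, a ligand of Cxcr3, at 115 ± 8.08 against 6.12 ± 1.43 CPM. These 4 were under 0.1 CPM in LN. Macrophage markers, with a median of 3.45, were higher in the same libraries, as were hepatoma markers, and which cells supplied the chemokine transcripts was not tested. Ccl22, a ligand of Ccr4, was not called (19.4 against 16.9 CPM).

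Receptors for cytokines that use the common gamma chain were higher in Hepa1-6 for 7 of 8 (median 0.46); besides the IL-2 receptor chains and Il4ra, Il9r was the exception, at 9.97 ± 1.4 against 34.5 ± 1.54 CPM (log2 fold change -1.79 ± 0.12 (SE), edgeR adjusted p = 7.68e-09). STAT and SOCS genes were higher for 10 of 12 and lower for none (median 0.61). Cish, which IL-2 signals through STAT5 induce, was at 474 ± 16.2 against 244 ± 0.51 CPM (log2 fold change 0.96 ± 0.06 (SE), edgeR adjusted p = 1.05e-09), and Stat2 and Stat3 were at 128 against 71.3 CPM and 1154 against 744 CPM. Stat5a and Stat5b were not called. Exons of Stat3 overlap Stat5a. TNF receptor co-stimulators were higher for 5 of 8 (median 0.33), among them Tnfrsf1b (832 against 522 CPM), Tnfrsf18 (GITR, 652 against 445 CPM) and Tnfrsf4 (OX40, 895 against 681 CPM). Of 10 checkpoint receptors 6 were higher in Hepa1-6 and 2 in E.G7 (median 0.27). Havcr2 (TIM-3) was at 210.1 ± 2.57 against 92.1 ± 10.4 CPM, Vsir (VISTA) at 364 ± 18.1 against 184 ± 2.46 CPM and Btla, higher in E.G7, at 36.9 ± 3.1 against 71.5 ± 0.878 CPM. Both tumours lay below LN for Btla (139 CPM). Pdcd1 (PD-1) was not called, at 339 against 371 CPM.

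Genes of the T cell receptor complex differed little. Of 14, 4 were higher in Hepa1-6 and 1 in E.G7, a median of -0.03 and a share near the background. Lat, an adaptor of the receptor, was at 284 ± 24 against 452 ± 22.9 CPM (log2 fold change -0.67 ± 0.07 (SE), edgeR adjusted p = 6.68e-07), with 525 in LN, Cd3e at 482 against 386 CPM and Cd4, not called, at 619 against 661 CPM. With upper-quartile scaling 3 were higher and 5 lower. Genes induced by receptor signals were higher for 6 of 11 and lower for 2 (median 0.24); Egr2 was at 84.8 against 40.8 CPM and Nr4a2 at 235 against 160.0 CPM, and Tox (129 against 261 CPM, 247 in LN) and Myc (194 against 245 CPM, 276 in LN) were higher in E.G7. NF-kB targets were higher for 10 of 12 and lower for none (median 0.37), among them Icam1 (354 against 198 CPM), Nfkbiz (602 against 389 CPM) and Nfkb2 (351 against 235 CPM).

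The list of genes that dissociation and sorting can induce moved with these groups. Of 14, 12 were higher in Hepa1-6 and 1 in E.G7 (median 0.78), and they summed to 13286 to 13755 CPM in Hepa1-6, 8506 to 8726 in E.G7 and 5432 to 5787 in LN. Atf3 was at 417 ± 9.99 against 61.1 ± 2.66 CPM, Fos at 2165 ± 16 against 993 ± 23.1 CPM, Zfp36 at 1754 ± 88.5 against 849 ± 22.3 CPM and Hspa1a at 107 ± 3.26 against 39.4 ± 0.765 CPM, while Hsp90aa1 was higher in E.G7 (813 against 1305 CPM). Receptor and NF-kB signals can induce several of the same genes, and the part of handling was not tested.

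Interferon-induced genes were higher in Hepa1-6. All 15 GTPases that interferon gamma induces, guanylate-binding proteins and immunity-related GTPases of cell-autonomous defence, were called higher, with a median of 0.88, and summed to 3115 to 3338 CPM in Hepa1-6, 1543 to 1721 in E.G7 and 2775 to 3027 in LN. E.G7 libraries were thus below LN, and Hepa1-6 libraries above it. Gbp2 was at 351, 355, 359 and 392 CPM in the 4 Hepa1-6 libraries and 93.5 and 79 in the 2 E.G7 libraries (log2 fold change 2.08 ± 0.09 (SE), edgeR adjusted p = 5.48e-11). Gbp3 was at 283 ± 11.3 against 110.4 ± 13.5 CPM, Irgm1 at 249 ± 8.13 against 113 ± 7.54 CPM and Iigp1 at 176 ± 6.61 against 56.3 ± 1.93 CPM. Members of these families have near-identical copies, so the level of a single member is uncertain. Of 20 genes of type I interferon response 14 were higher and none lower (median 0.83). Oasl1 was at 71.4, 77.2, 68.9 and 75.6 CPM in the 4 Hepa1-6 libraries and 6.17 and 6.33 in the 2 E.G7 libraries (log2 fold change 3.55 ± 0.12 (SE), edgeR adjusted p = 2.87e-12). Oasl2 was at 76.6 ± 1.58 against 12.7 ± 1.6 CPM, the deconjugase gene Usp18 at 65.3 ± 2.29 against 21.6 ± 0.167 CPM and Rsad2 (viperin) at 75.8 ± 3.7 against 18.1 ± 0.636 CPM. Ifit1 and Ifit3, of the same response, were not called (33.4 against 32.4 CPM and 18.6 against 17.5 CPM). In antigen loading on MHC class I 11 of 13 were higher (median 0.35), with Tapbp at 1031 against 639 CPM and H2-D1 at 6993 against 5272 CPM. All these genes are also induced in macrophages and tumour cells.

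Because the interferon genes moved together, their promoters were read for the letters GAAANNGAA of the interferon-stimulated response element, on both strands, in windows from 250 bases before to 50 bases after the start (RefSeq, GRCm38.p6). Windows were found for 10 of the 15 GTPase genes, and 9 of these genes (90%) held the letters; so did 9 of 13 type I genes found (69.2%), against 9.76% of 27025 genes. TTCNNNGAA, the letters of a STAT site, stood in a window of 6 of the 10 GTPase genes (60%) against 9.55% of genes. A match is a description of the sequence and not a shown site of binding. Other lists held some of these letters often too, such as TTCNNNGAA in 4 of 7 TNF receptor co-stimulators found (57.1%), and TCACACC, the letters of a T-box site, stood in 0 of 11 Th1 genes found against 4.6% of all genes. The windows of Gbp2 (chr3:142620413-142620712, plus strand), which had the largest difference among the 15 listed GTPases (Gbp2b, named above, is not in the list), and Irgm1 (chr11:48871371-48871670, minus strand) are printed, with capitals for the matched letters. The match in Gbp2 begins 58 bases before the start, on the reverse strand, and those in Irgm1, which overlap, 30 and 24 bases before it.
Gbp2 promoter: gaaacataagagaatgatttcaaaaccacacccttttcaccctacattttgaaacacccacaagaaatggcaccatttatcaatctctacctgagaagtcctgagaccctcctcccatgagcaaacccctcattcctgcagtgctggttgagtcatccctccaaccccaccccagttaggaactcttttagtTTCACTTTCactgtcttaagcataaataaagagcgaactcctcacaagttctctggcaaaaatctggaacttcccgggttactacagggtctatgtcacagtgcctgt
Irgm1 promoter: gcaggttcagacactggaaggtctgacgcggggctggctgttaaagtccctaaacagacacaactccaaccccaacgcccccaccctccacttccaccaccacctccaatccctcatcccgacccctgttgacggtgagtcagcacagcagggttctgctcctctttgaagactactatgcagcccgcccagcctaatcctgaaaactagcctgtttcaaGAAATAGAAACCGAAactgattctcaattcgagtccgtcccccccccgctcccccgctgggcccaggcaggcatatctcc

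Among genes of energy metabolism, glucose uptake and lactate export stood out in Hepa1-6. Slc2a1, the glucose transporter GLUT1, was at 638, 648, 644 and 647 CPM in the 4 Hepa1-6 libraries and 172 and 168 in the 2 E.G7 libraries (log2 fold change 1.92 ± 0.05 (SE), edgeR adjusted p = 3.98e-13). Slc16a3, the lactate exporter MCT4, was at 294 ± 10.3 against 83.7 ± 1.41 CPM (log2 fold change 1.81 ± 0.08 (SE), edgeR adjusted p = 7.69e-11). The 2 tumours were far apart for both genes and both lay above LN (71.2 and 11.1 CPM). Of 16 glycolytic genes 11 were higher in Hepa1-6 (median 0.42), such as Aldoa (2327 against 1281 CPM) and Tpi1 (1385 against 823 CPM). The transporter Slc2a3 (209 against 306 CPM) and the lactate dehydrogenase gene Ldha (2868 against 3488 CPM) were higher in E.G7.

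Hypoxia-induced genes were higher for 7 of 11 and lower for none (median 0.43). Bnip3, a mitophagy receptor, was at 193, 185, 194 and 197 CPM in the 4 Hepa1-6 libraries and 44.3 and 39.7 in the 2 E.G7 libraries (log2 fold change 2.19 ± 0.08 (SE), edgeR adjusted p = 7.27e-12). Ndrg1 was at 294 ± 11.7 against 104 ± 3.66 CPM, the collagen hydroxylase gene P4ha1 at 246 ± 11.2 against 109 ± 12.7 CPM and Ankrd37 at 40.2 ± 4.25 against 9.76 ± 0.927 CPM. Other genes of the response were not called, such as Egln3 (112 against 101 CPM), Pdk1 (128 against 135 CPM) and Higd1a (85.4 against 79.6 CPM). ACGTG, the core letters of the hypoxia response element, stood on either strand in the windows of 9 of 11 hypoxia genes (81.8%) and 10 of 15 glycolytic genes found (66.7%), against 21.8% of all genes. Lists of other kinds also lay above that share, with 4 of 7 pan T cell markers found (57.1%) and 4 of 8 checkpoint receptors found (50%). The windows of Bnip3 (chr7:138909457-138909756, minus strand) and Slc2a1 (chr4:119108495-119108794, plus strand), the genes with the smallest adjusted p of each list, are printed with the core in capitals. It begins 36 bases before the start in Slc2a1, and in Bnip3 at 108 and, on the other strand, 107 bases before it, as overlapping matches.
Bnip3 promoter: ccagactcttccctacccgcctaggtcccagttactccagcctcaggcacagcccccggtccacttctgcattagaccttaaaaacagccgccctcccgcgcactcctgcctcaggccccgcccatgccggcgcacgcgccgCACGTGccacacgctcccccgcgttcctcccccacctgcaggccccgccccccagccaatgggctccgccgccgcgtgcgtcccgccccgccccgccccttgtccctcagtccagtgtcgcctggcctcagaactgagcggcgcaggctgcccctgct
Slc2a1 promoter: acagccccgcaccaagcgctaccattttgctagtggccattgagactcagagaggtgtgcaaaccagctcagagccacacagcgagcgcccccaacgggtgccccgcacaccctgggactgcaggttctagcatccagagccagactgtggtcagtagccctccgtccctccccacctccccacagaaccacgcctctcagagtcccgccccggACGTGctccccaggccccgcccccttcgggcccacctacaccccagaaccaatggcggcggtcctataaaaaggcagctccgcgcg

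Oxidative stress defence genes were higher for 6 of 10 (median 0.51), led by Hmox1, haem oxygenase 1, at 640.1, 663, 674 and 741 CPM in the 4 Hepa1-6 libraries and 35.3 and 36.1 in the 2 E.G7 libraries (log2 fold change 4.25 ± 0.11 (SE), edgeR adjusted p = 1.07e-13). Macrophages that clear red cells make much Hmox1. Macrophage and hepatoma markers, given above, were both higher in the same libraries, and which cells supplied Hmox1 was not tested. Gclm and Srxn1, of glutathione synthesis and peroxiredoxin repair, were at 39.8 against 15 CPM and 16.3 against 5.62 CPM. In the list of survival and death genes 5 of 12 were higher and 3 lower (median 0.23): Bcl2l1 (Bcl-xL) was at 398 ± 4.7 against 185 ± 17.5 CPM and Pmaip1 (Noxa) at 295 ± 5.71 against 127 ± 10.04 CPM, whereas Bcl2, Bid and Bax were higher in E.G7.

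Cell cycle genes formed the list with the most even difference towards E.G7: all 22 were higher there, with a median of -1.0. They summed to 2293 to 2371 CPM in Hepa1-6, 4499.9 to 4857 in E.G7 and 1037 to 1156 in LN. Rrm2, the regulated subunit of ribonucleotide reductase, was at 94.3, 98.3, 91.4 and 89.2 CPM in the 4 Hepa1-6 libraries and 331 and 311 in the 2 E.G7 libraries (log2 fold change -1.78 ± 0.07 (SE), edgeR adjusted p = 1.36e-11). Tyms (thymidylate synthase) was at 62.5 ± 4.92 against 162 ± 0.133 CPM, and the helicase genes Mcm5 and Mcm2 at 156 ± 4.94 against 365 ± 21.7 CPM and 145 ± 6.89 against 352 ± 38.1 CPM. Mki67, the proliferation marker, was at 92.4 ± 3.34 against 164 ± 5.71 CPM (log2 fold change -0.83 ± 0.08 (SE), edgeR adjusted p = 2.44e-07). Both tumours lay above LN, where Mki67 was at 25.8 CPM. Trap1a, Dntt and Arpp21, given above, moved in the same direction, and the part of lymphoma cells was not tested.

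Genes of the amino acid stress response and of serine and one-carbon metabolism were higher in E.G7 for 10 of 14 and in Hepa1-6 for none (median -0.72). Asns (chr6:7675169-7693254 in mm10), asparagine synthetase, was at 78, 85.6, 85.5 and 89.6 CPM in the 4 Hepa1-6 libraries and 661 and 651 in the 2 E.G7 libraries (log2 fold change -2.95 ± 0.08 (SE), edgeR adjusted p = 2.34e-13), with 5.56 in LN. It was far above both other groups in E.G7. The mitochondrial folate enzymes Mthfd2 and Shmt2 were at 67.4 ± 4.94 against 167 ± 4.64 CPM and 106 ± 4.51 against 222 ± 4.91 CPM, and Psat1, of serine synthesis, at 124 ± 10.5 against 269 ± 12.6 CPM. Their Hepa1-6 means lay near LN for Mthfd2 (76.4 CPM) and Shmt2 (111 CPM). Atf4, the factor of this response, differed less (243 against 299 CPM), and its target Ddit3 was not called (25 against 20.5 CPM).

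Respiratory chain genes were higher in E.G7 for 13 of 17 and in Hepa1-6 for 1 (median -0.42); the complex I genes Ndufv1 and Ndufs1 were at 133 ± 4.57 against 231 ± 1.02 CPM and 123 ± 4.09 against 181 ± 10.6 CPM. The share of mitochondrially encoded counts was higher in E.G7 as well, as given above. Of 16 cholesterol synthesis genes 6 were higher in E.G7 and 1 in Hepa1-6 (median -0.22). Cyp51 was at 71.7 ± 2.38 against 163 ± 6.7 CPM and Insig1 at 81.4 ± 1.54 against 133 ± 0.747 CPM; Hmgcs1 was not called.

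**Figure D4:**
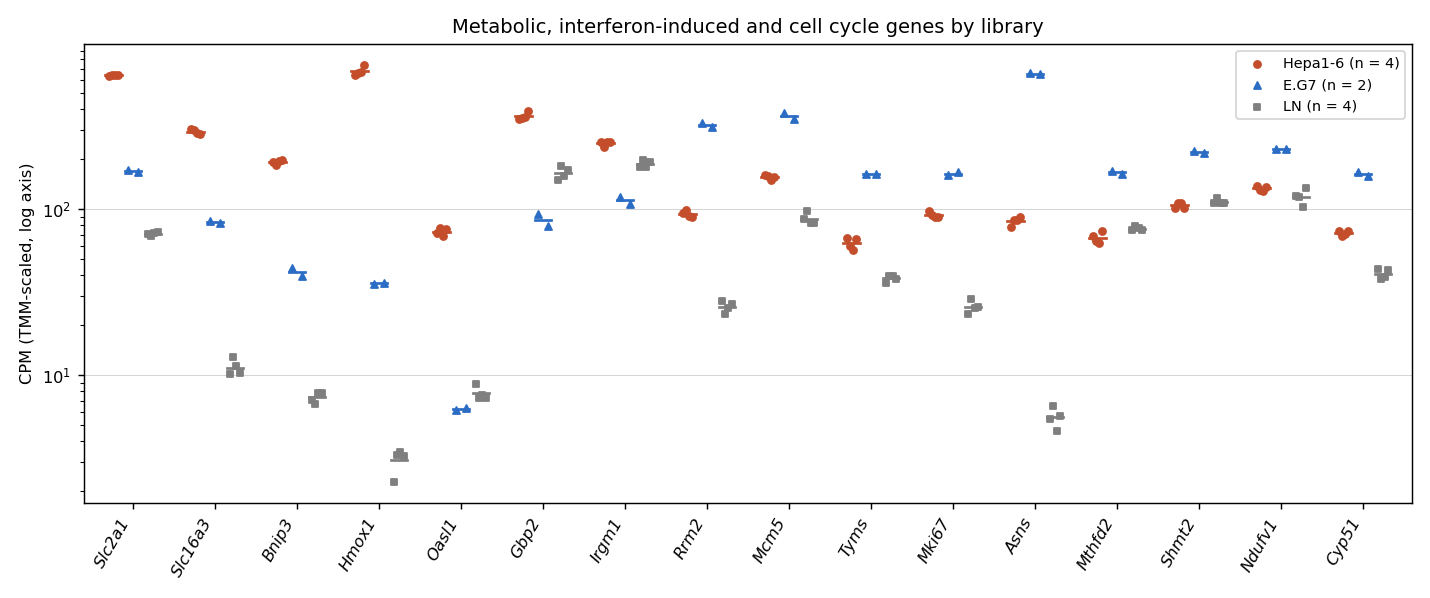
CPM on a log axis for 16 metabolic, interferon-induced and cell cycle genes; points are libraries and short bars group means. Slc2a1, Bnip3, Hmox1, Oasl1 and Gbp2 lie higher in Hepa1-6, and Rrm2, Mcm5, Tyms, Asns and Mthfd2 in E.G7, with no overlap between the tumours for any of the 16. Most of the 16 were chosen by their adjusted p, and 58% of all genes tested had no overlap.

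The T cell receptor repertoire, read as the share of variable (V) segment counts, also differed. Among alpha chain segments, Trav14-2 took 11.3, 11.9, 11.2 and 12.9% in the 4 Hepa1-6 libraries, 1.82 and 1.32% in E.G7 and 2.36 to 2.88% in LN. Trav2 took 3.52, 4.86, 3.8 and 4.99% in the 4 Hepa1-6 libraries, 0.838 and 0.635% in E.G7 and 0.475 to 0.689% in LN. Trav13n-4 took 0.249, 0.358, 0.203 and 0.143% in the 4 Hepa1-6 libraries, 7.71 and 8.3% in E.G7 and 0.465 to 0.896% in LN. The first pair was thus raised in every Hepa1-6 library, and the last in both E.G7 libraries. Among beta chain segments the libraries were more alike: Trbv13-2 took 13.1, 12.3, 11.1 and 11.8% in the 4 Hepa1-6 libraries, 13 and 13% in E.G7 and 13.1 to 14% in LN, and Trbv29 4.7, 4.23, 4.18 and 4.16% in the 4 Hepa1-6 libraries, 1.76 and 2.05% in E.G7 and 1.96 to 2.44% in LN. Trav segments of duplicated clusters are near-identical, so a share can be split between copies. These shares are descriptions, and the segments were chosen after their values were seen.

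**Figure D5:**
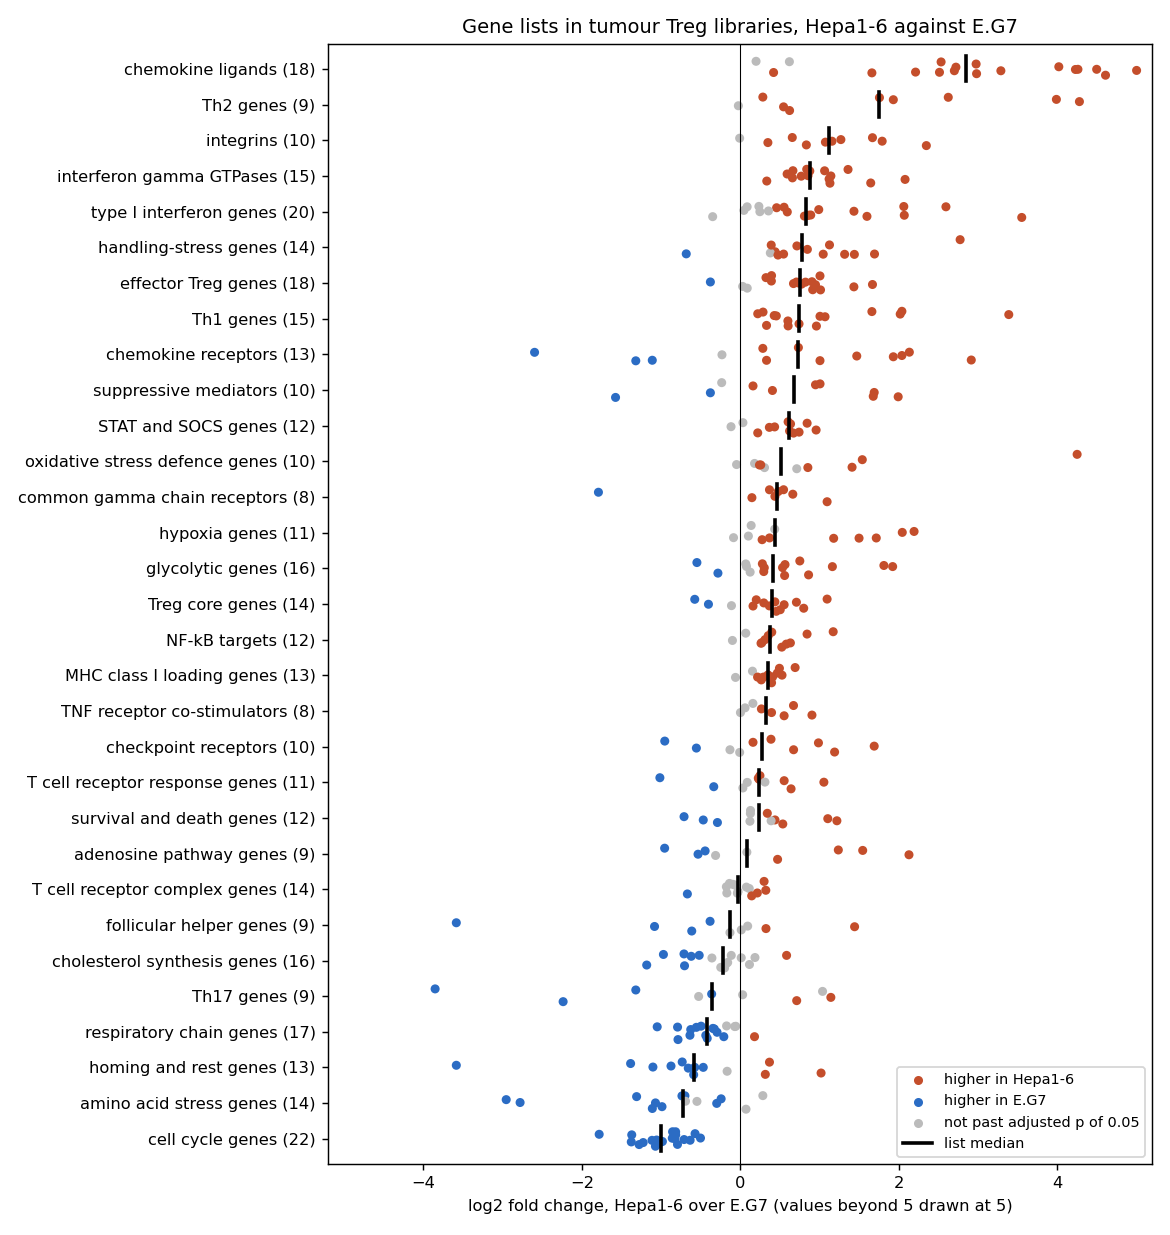
Log2 fold change, Hepa1-6 over E.G7 (x axis), of the tested members of 31 gene lists (y axis, number tested in brackets), coloured by call; black bars are list medians. Cell cycle genes lie wholly on the E.G7 side (median -1.0) and Th1 genes and interferon gamma GTPases wholly on the Hepa1-6 side (0.74 and 0.88).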

How the data were processed

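Whole-number read counts per gene were deposited by the authors in one table that also gives exon positions and a length for each gene, as featureCounts writes it, per the file headers. Deposited FPKM values, one table per library with 12930 genes, are the authors' counts divided by gene length and a constant of each library. The build was mm10, and HISAT2, RSEM, DESeq2, Subread and featureCounts were used, per the submitters' processing notes; versions, roles, annotation and strand setting are not given in the sources used here.

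Groups were taken from the sample titles. The counts went into edgeR 4.0.16 (R 4.3.3): filterByExpr (20068 genes), TMM, and a robust quasi-likelihood fit of group means over 10 libraries, so that LN libraries add to the estimate of spread for the 2 E.G7 libraries. Benjamini-Hochberg adjusted p under 0.05 was the threshold, with no minimum fold. SE was taken as log2 fold change over the root of the F statistic. The biological coefficient of variation was 13.0%. A group with no count was set to a floor of 3 counts over the group (0.0309 CPM in Hepa1-6, 0.0555 in E.G7); floors and intervals cover counting error only.

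Genes named were 20 chosen Treg and helper genes, the 8 largest fold changes in each direction (10 CPM or more on average in the group with more, no overlap of libraries, no predicted genes, pseudogenes or receptor segments), 8 each among genes of at least 10 CPM in LN, and up to 4 members per list with the smallest adjusted p; other members are given to show a list's exceptions, and a few genes are not reported here. The comparison, members and 44 lists were chosen with earlier results of these data known. On simulated data for Hepa1-6 against E.G7 (19375 genes) the model recovered 44.8% of changes of 1.5-fold, 65.7% at 2-fold and 89.4% at 4-fold, and 5% of its calls were false. That was a single simulated set in which only a small part of the genes was changed. In the real contrast 45.6% of genes were called, so these rates need not hold for it.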

Additional observations from a re-analysis of the deposited data

Results flagged for a closer look

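In 199 named genes, the highest or lowest of the 4 Hepa1-6 libraries stood apart from the other 3 by more than Dixon's 95% critical value in 7, where chance flags about 1 in 20 groups. Alb was low in replicate 3, at 356 CPM against 374 to 377 in the other 3. Havcr2 was low in replicate 1, at 206 CPM against 211 to 212. Irgm1 was low in replicate 2, at 237 CPM against 252 to 253, and Xist was high in the same library, at 242 CPM against 203 to 209. Trap1a was at 0.206 CPM in replicate 4, Insl5 at 0.0414 CPM in replicate 2 and Mylk4 at 0.0408 CPM in replicate 1, with 0 in the other 3 libraries of each. All of these gaps are small beside the differences between the tumours. The share flagged, 7 of 199, was below 1 in 20. Where 3 libraries are at 0, any count in the fourth is flagged, as for Trap1a, Insl5 and Mylk4. The rate of 1 in 20 does not apply to those genes.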

How the results depend on the processing

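Of 204 named genes, 185 had a value in all 23 alternatives, and 142 of these kept their side of the threshold in each. The other 19 lacked a value in at least 1 (39 values in all). No named gene changed direction in an alternative where the main edgeR fit or that alternative called it. For Gata3 and Bcl6, not called in the main fit, a change of sign without a call was not counted. Tested against a fold of 1.5 the counts were 2837 higher in Hepa1-6 and 1369 in E.G7, and 595 and 549 among genes of at least 10 CPM in LN. Leaving out 1 library at a time gave 3962 to 5275 higher and 3007 to 3950 lower, and 1702 to 2398 and 2008 to 2556 among genes of at least 10 CPM in LN; with 1 E.G7 library left, it is assumed to vary like the other groups. DESeq2 1.42.0 called 5148 and 4008 genes and limma-voom (limma 3.58.1) 5189 and 4189. Upper-quartile scaling called 4759 and 4502 and the 6 tumour libraries alone 4735 and 4563. Among genes of at least 10 CPM in LN, the balance moved both ways: a filter of 10 CPM gave 2613 higher and 2415 lower, whereas the 6 tumour libraries alone gave 1911 and 3021, upper-quartile scaling 1987 and 2958 and no filter 1870 and 2784. Besides Ikzf2, Ctla4 and Ddx3y, calls lost in at least 1 alternative other than the fold of 1.5 included those of Cd5, Ighd, Plvap, Vwf, Fcer2a, S100a9, Mcpt4, Kit and Hbb-bt; the causes were not tested. Replicate numbers gave no sign of pairing: deviations of same-numbered tumour libraries correlated at -0.018 and 0.0085. The deviations of 2 E.G7 libraries mirror each other, so these values are not separate checks and cannot exclude pairing. A fit with the replicate block called 4900 higher and 3469 lower, and 2230 and 2287 among genes of at least 10 CPM in LN. E.G7 with 2 libraries limits the precision, and depth leaves genes under about 1 CPM poorly measured.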

Other observations

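Calls were spread unevenly over the chromosomes. On chromosome 12, 122 genes were higher in Hepa1-6 and 201 in E.G7, so that 37.8% of its calls were higher in Hepa1-6, against 57.1% over all genes. Without antigen receptor segments, which lie there too, the counts were 109 and 198. Among its 315 genes of at least 10 CPM in LN, 47 were higher in Hepa1-6 and 134 in E.G7. Chromosome 3 had 298 higher and 147 lower, or 67% higher, and chromosome 1 had 403 and 223. On the X chromosome 147 were higher and 155 lower. Of 23 mitochondrial genes tested, 7 were higher in E.G7 and none in Hepa1-6, against 19.6% and 26.1% of all genes tested. Among the 13 with at least 10 CPM in LN, 5 were higher in E.G7, against 28.9% of all such genes. With so few genes, a distance from these shares was not tested. Genes of a chromosome are not independent, and the chromosomes were named after their values were seen.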
